A study of Mus musculus with 5 samples.

Results

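Mitosis and spindle genes were followed in BV-2 cells, an immortalised mouse microglial cell line that divides in culture. The list holds 40 genes chosen by name for their part in entering, executing or leaving mitosis, and all 40 were present among the 40879 gene symbols of each count file. There were 5 libraries, 1 for each group. In 3 of them the antidepressant trazodone (TZ) was added at 1.25, 2.5 or 5 µg/mL, 1 h ahead of a 23 h exposure to 50 µg/mL of urban particulate matter (UPM). They are called TZ 1.25, TZ 2.5 and TZ 5, and the UPM library had the particles alone. The last library was a control with neither agent. No library had TZ without UPM, and the labels do not say whether a vehicle was given to the control.

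A dividing cell builds a bipolar spindle, attaches each chromosome to it at the centromere and separates the copies only when every attachment has been made. Cdk1 with cyclin B drives entry, Plk1 and the Aurora kinases shape the spindle, and kinesins move and slide its microtubules. Checkpoint proteins such as BubR1 and Mad2 hold back Cdc20, the activator of the anaphase-promoting complex (APC/C), until the chromosomes are aligned. The APC/C then marks securin and cyclin B for destruction, and the cell divides by cytokinesis. Transcripts of these genes accumulate in the late part of the cell cycle, so in a bulk culture their level moves both with the share of cells near division and with the amount of RNA per such cell. These cannot be told apart here.

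Transcripts were counted by 3′-end sequencing of poly(A) RNA. Totals ran from 6829720 to 7696168 counts per library, and single list members had between 33 and 10554 counts. Levels are given as normalised CPM, which is the count in each 1000000 counts of the library after scaling by TMM factors of 0.991 to 1.01. They are not divided by transcript length, so values are compared between libraries for a gene and not between genes. Of 14 microglial markers 12 were at 10 CPM or more in every library, while P2ry12 had 0.666 to 1.60 CPM and Tmem119 3.06 to 7.45 CPM. The marker lists of neurons, astrocytes, oligodendrocytes and fibroblasts summed to at most 1.52, 1.73, 4.19 and 6.06 CPM in any library, and Slc17a7, Aqp4 and Mog were at 0 counts in all 5.

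Many promoters of mitotic genes carry a cell cycle homology element (CHR), through which the DREAM complex represses them in resting cells and complexes with B-Myb and FoxM1 activate them in dividing cells, and CCAAT boxes, which bind NF-Y. RefSeq promoter windows (build GRCm38.p6, from 250 bases before to 50 after the annotated start) matched 34 of the 40 genes by symbol. Tpx2, Incenp, Aurkb, Ccna2, Cdc25c and Kif20a had no entry. The letters searched were TTTGAA or TTCGAA for the CHR and CCAAT for the CCAAT box, each on both strands. In the 250 bases before the start a CHR match was present in 14 of 34 genes (41.2%), against 5284 of 27025 genes in the whole table (19.6%), counting a gene once if any of its windows held it. A CCAAT match was present in 28 of 34 (82.4%) against 10133 of 27025 (37.5%), and both in 13 of 34 (38.2%) against 7.0%. With the 50 bases after the start included, the CHR share was 26 of 34 (76.5%) against 21.7%. For comparison, 6 of 31 matched DNA replication genes (19.4%) had a CHR match in the full window. A match describes letters in a window and is not a binding site shown by these data.

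The sequences below are the 200 bases before the start for the 4 genes that fell with TZ dose (Cdc20, Bub1b, Plk1 and Cenpa, chosen after their values were seen) and for the 3 genes with the highest mean CPM among those with both matches (Top2a, Mki67 and Cdk1). They are written 5′ to 3′ on the strand of the gene, and capitals mark matches to the CHR and CCAAT letters on either strand, which share no letters in these windows. All are from GRCm38.p6. The Cdc20 stretch is chr4:118437344-118437543 on the minus strand. That of Bub1b is chr2:118598011-118598210 on the plus strand, that of Plk1 chr7:122159235-122159434 on the plus strand, and that of Cenpa chr5:30666686-30666885 on the plus strand. Those of Top2a (chr11:99024190-99024389), Mki67 (chr7:135716380-135716579) and Cdk1 (chr10:69352913-69353112) are on the minus strand.
Cdc20: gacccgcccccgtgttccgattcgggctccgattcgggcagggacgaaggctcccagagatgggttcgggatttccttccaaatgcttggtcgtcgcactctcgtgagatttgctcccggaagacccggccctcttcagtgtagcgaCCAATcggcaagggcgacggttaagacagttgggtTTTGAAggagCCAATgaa
Bub1b: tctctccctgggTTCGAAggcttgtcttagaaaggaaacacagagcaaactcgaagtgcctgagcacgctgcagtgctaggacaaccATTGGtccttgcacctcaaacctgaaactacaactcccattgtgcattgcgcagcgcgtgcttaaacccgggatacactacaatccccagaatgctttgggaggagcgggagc
Plk1: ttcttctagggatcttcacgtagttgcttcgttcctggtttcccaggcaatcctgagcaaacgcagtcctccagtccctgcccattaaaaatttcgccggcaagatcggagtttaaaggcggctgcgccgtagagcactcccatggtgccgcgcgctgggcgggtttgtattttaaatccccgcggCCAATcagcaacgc
Cenpa: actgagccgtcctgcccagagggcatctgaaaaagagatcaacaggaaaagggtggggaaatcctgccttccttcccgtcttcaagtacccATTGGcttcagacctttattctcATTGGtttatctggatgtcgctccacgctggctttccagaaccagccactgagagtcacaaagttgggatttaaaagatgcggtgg
Top2a: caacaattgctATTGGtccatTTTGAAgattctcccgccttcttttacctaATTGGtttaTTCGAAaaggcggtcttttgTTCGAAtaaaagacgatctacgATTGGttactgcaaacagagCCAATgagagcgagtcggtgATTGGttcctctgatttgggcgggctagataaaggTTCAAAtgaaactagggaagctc
Mki67: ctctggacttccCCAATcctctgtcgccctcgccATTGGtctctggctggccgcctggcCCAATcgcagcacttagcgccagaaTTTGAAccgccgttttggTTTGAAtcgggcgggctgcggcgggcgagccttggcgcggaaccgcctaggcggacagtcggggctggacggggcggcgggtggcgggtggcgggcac
Cdk1: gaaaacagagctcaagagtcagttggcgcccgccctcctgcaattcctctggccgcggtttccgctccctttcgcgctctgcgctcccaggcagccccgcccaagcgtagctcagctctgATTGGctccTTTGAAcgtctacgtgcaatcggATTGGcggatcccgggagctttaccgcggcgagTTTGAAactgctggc
All 4 genes that fell had a CCAAT match before the start and a CHR match in the full window. Cdc20 and Bub1b had a CHR match before the start, and in Plk1, Cenpa and also Bub1b a match reached into the 50 bases after the start. Of the 30 matched genes that did not fall, 24 had a CCAAT match before the start, while 12 had a CHR match before the start and 22 in the full window. Top2a, Mki67 and Cdk1 are among these.

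UPM against control addresses the response of the cells to the particles. Mitotic transcripts differed little between these libraries, and Cdkn3 was the single one of the 40 genes past the limit. As a rule of size, calls of higher or lower needed a fold of at least 1.5 either way, a 95% counting interval that excluded 1 and a mean of at least 10 CPM in the pair. Of 38 members measured at that level 1 was called higher and 0 lower, against 1.67% called higher and 1.41% called lower of 8282 genes. The median log2 fold of the members was 0.04, against -0.0047 over all genes measured. Their summed level was 7121 CPM in UPM and 6959 CPM in the control, a fold of 1.02 (1.01 to 1.04, exact conditional binomial interval). With 1 library per group these folds and intervals cover counting error only and compare libraries, not conditions.

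Cdkn3 encodes a phosphatase that removes the activating phosphate of Cdk kinases. It had 16.3 CPM in UPM and 9.72 CPM in the control, a fold of 1.68 (1.25 to 2.28). Its counts were 125 and 73, so the interval is wide. Kif2c, a kinesin that takes microtubules apart at the kinetochore, stood just under the limit with 45.9 CPM in UPM and 30.6 CPM in the control, a fold of 1.498 (1.27 to 1.78), and it passed when libraries were scaled by their totals alone. Anln, the actin-binding scaffold anillin of the cleavage furrow, was at 1.29-fold (1.17 to 1.42), and Cenpa, the histone H3 variant that marks centromeres, at 1.23-fold (1.15 to 1.32). On the other side Mad2l1, the checkpoint protein Mad2, was at 0.789-fold (0.66 to 0.942) and Incenp, the scaffold of the chromosomal passenger complex, at 0.828-fold (0.768 to 0.893).

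In a fit of all 5 libraries with a UPM term and TZ dose as a number, the UPM term called 0 of the 40 members (edgeR quasi-likelihood test, Benjamini-Hochberg adjusted p under 0.05). There were 4 with an unadjusted p under 0.05, all with a positive coefficient, where 4.26% of all 12381 genes were positive and 3.53% negative at that limit. By adjusted p 0.0808% of all genes rose and 0.0323% fell. DESeq2 called 0 members, where 0.0257% of 19451 genes rose and 0.00514% fell. Whether it gave each of the 40 an adjusted p for this term was not looked up. The 4 members were Kif2c (0.54, SE 0.17, adjusted p = 0.367), Cdkn3 (0.78, SE 0.28, adjusted p = 0.445), Anln (0.32, SE 0.12, adjusted p = 0.507) and Cenpa (0.25, SE 0.11, adjusted p = 0.599), as log2 values of edgeR.

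**Figure D1:**
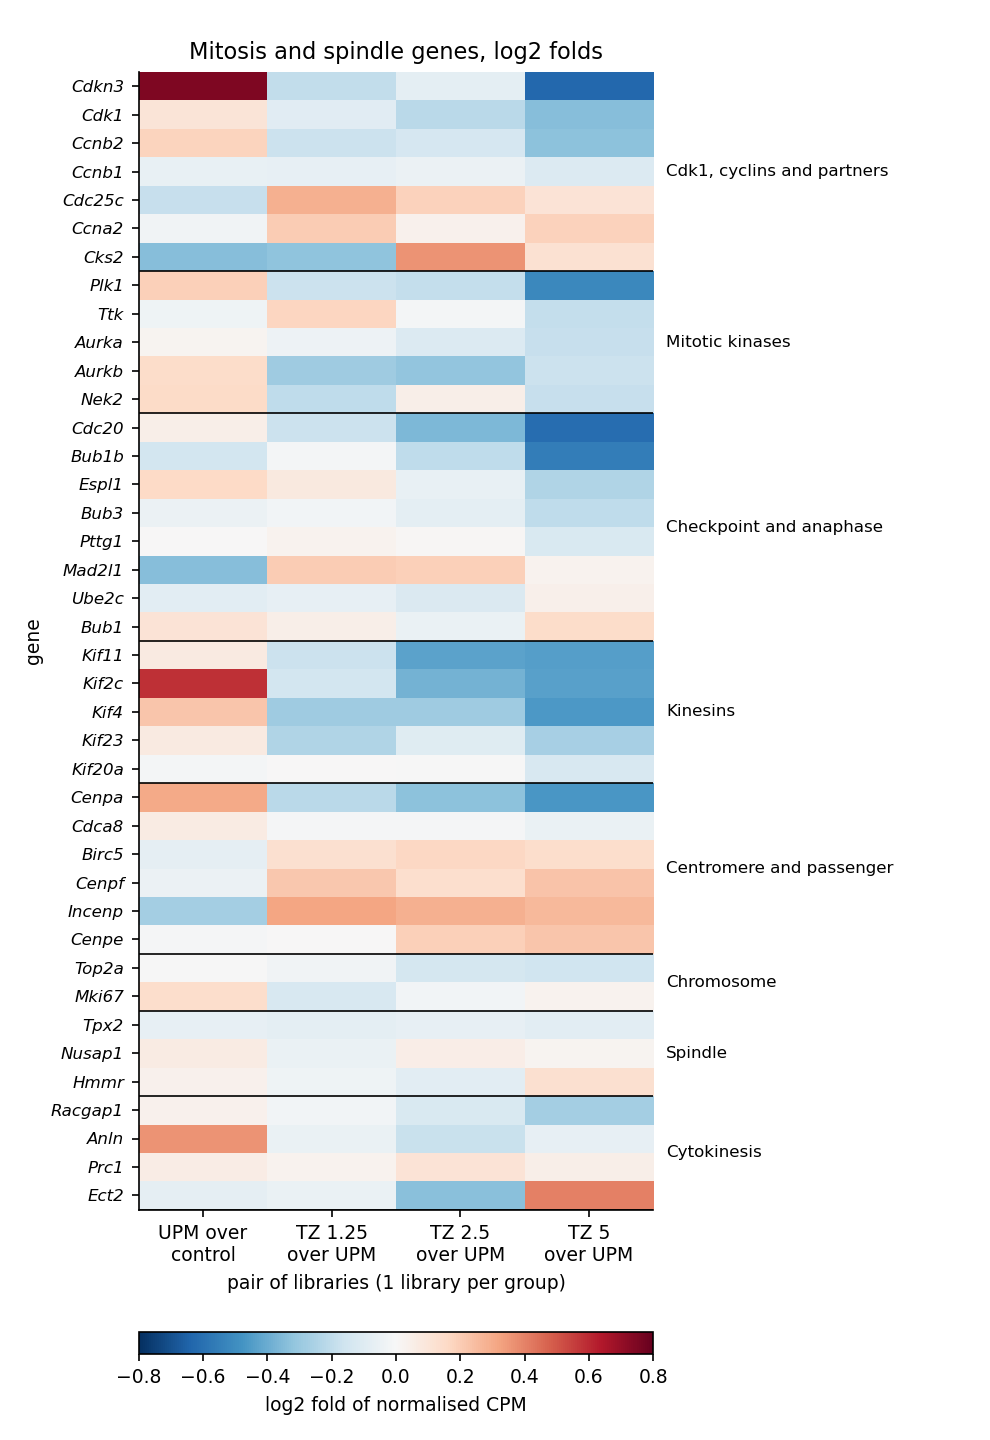
Log2 folds of normalised CPM for the 40 genes (rows, grouped by function and ordered by dose coefficient) in 4 pairs of libraries (columns), on a colour scale from -0.8 to 0.8. Cdkn3 and Kif2c are the deepest red in UPM over control (1.68-fold and 1.498-fold), and Cdkn3, Cdc20 and Bub1b the deepest blue in TZ 5 over UPM (0.648-fold, 0.654-fold and 0.681-fold); all 4 pairs share the UPM library.

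The relation to TZ dose was tested as a line, from UPM (dose 0) to TZ 5. Of the 40 mitotic genes 4 fell with dose and 0 rose (edgeR quasi-likelihood test, Benjamini-Hochberg adjusted p under 0.05 over 12381 genes), against 2.50% of all genes that fell and 2.95% that rose. The 4 were Cdc20, Bub1b, Plk1 and Cenpa. At an unadjusted p under 0.05 there were 10 members with a negative and 1 with a positive coefficient, against 8.42% and 9.15% of all genes. The shares over all genes were not matched to the members for level, and genes with few counts are harder to call. In TZ 5 against UPM 38 of the 40 members had a mean of at least 10 CPM, as had 8367 genes in all. DESeq2 called 5 lower and 0 higher, the fifth being Cdk1, where 0.751% of 19451 genes were lower and 0.869% higher. These 19451 genes include some without an adjusted p from DESeq2, among them Kif4, Ect2 and Cdkn3. Such genes could not be called, so the 2 DESeq2 shares are lower than they would be over the genes given an adjusted p. Whether a member had an adjusted p from DESeq2 was looked up only for the 15 picked for values in every library. The median coefficient of the 40 was a log2 value of -0.024 per µg/mL, against 0.0016 over all genes tested, and 26 were below 0. Each gene had 2 residual degrees of freedom beside 48.7 borrowed across genes, so these p-values rested mostly on spread shared across genes. Without the TZ 5 library 0 members fell, against 1.26% of all genes. There were then 4 members at an unadjusted p under 0.05 with a negative coefficient, and the share of all genes at that limit was not computed. Without the UPM library 2 members fell, Bub1b and Cdc20, against 0.77% of all genes.

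Other RNA classes differed along the doses too. Small nucleolar RNAs, which lack poly(A) tails, made up 0.0854% of the control library, 0.108% of UPM, and 0.0995%, 0.0645% and 0.0458% from TZ 1.25 to TZ 5. Mitochondrial ribosomal RNA made up 7.94% of the control library, 8.80% of UPM, and 8.64%, 7.0% and 7.06% from TZ 1.25 to TZ 5. Their part in the results on UPM and on dose was not tested.

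Cdc20, which activates the APC/C and is the target of the spindle checkpoint, had 198 CPM in the control, 204 with UPM alone, and 181, 159 and 133 from TZ 1.25 to TZ 5. It was lower at each step of dose, and TZ 5 lay below every other library. The coefficient was -0.12 per µg/mL on the log2 scale (SE 0.024, adjusted p = 0.000678, edgeR quasi-likelihood test), and the fold of TZ 5 against UPM was 0.654 (0.602 to 0.710). The last exon of Cdc20 is overlapped by Elovl1 on the opposite strand (GENCODE M21), and no source used here gives the handling of strand. Elovl1, a fatty acid elongase gene, had 77.4 CPM in UPM and 85.5, 85.6 and 80.2 CPM from TZ 1.25 to TZ 5, with a coefficient of 0.0042 (SE 0.029, adjusted p = 0.967). Ccna2, Kif20a, Prc1 and Ube2c have a last exon with such an overlap too, and their values carry the same limit.

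Bub1b encodes BubR1, which binds Cdc20 in the mitotic checkpoint complex. It had 126 CPM in the control, 114 with UPM alone, and 113, 99.0 and 77.7 from TZ 1.25 to TZ 5. The control was the highest library and TZ 5 the lowest, and it was lower at each step of dose. It fell by 0.12 per µg/mL on the log2 scale (SE 0.027, adjusted p = 0.00520), with a fold of 0.681 (0.611 to 0.760) for TZ 5 against UPM. Against the control, TZ 5 was called lower at 0.617-fold (0.554 to 0.686), the single member called in that pair, where 2.51% of 8340 genes were called lower and 3.55% higher.

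Of the other checkpoint and anaphase genes none passed the test. Bub3, the partner that brings Bub1 and BubR1 to kinetochores, had 299 CPM in the control, 290 with UPM alone, and 286, 275 and 252 from TZ 1.25 to TZ 5, lower at each step with a coefficient of -0.042 (SE 0.022, adjusted p = 0.337). Bub1, the kinase related to BubR1, had 83.2 CPM in UPM and 86.1, 80.1 and 92.1 CPM from TZ 1.25 to TZ 5, with no order by dose (coefficient 0.026, SE 0.028, adjusted p = 0.705). The remaining 4 were Mad2l1, Ube2c (the ubiquitin-conjugating enzyme of the APC/C), Pttg1 (securin) and Espl1 (separase, which cuts cohesin). Their coefficients ran from -0.055 to 0.0098, and their folds of TZ 5 against UPM from 0.848 to 1.03.

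Among the kinases, Plk1, which acts in centrosome maturation and spindle assembly, had 268 CPM in the control, 305 with UPM alone, and 271, 268 and 214 from TZ 1.25 to TZ 5. UPM was the highest library and TZ 5 the lowest, with the control level with the 2 lower doses. It fell by 0.099 per µg/mL (SE 0.023, adjusted p = 0.00471), and TZ 5 against UPM was 0.700-fold (0.655 to 0.747). The other 4 kinases, Aurka, Aurkb, Ttk (the checkpoint kinase Mps1) and Nek2 (of centrosome separation), had coefficients between -0.052 and -0.023 and were not called. In TZ 5 against UPM they were between 0.876-fold and 0.888-fold.

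Cdk1 and its partners gave 0 calls with dose in edgeR, with 2 of 7 at an unadjusted p under 0.05 (Cdk1 and Ccnb2). DESeq2 called 1 and gave no adjusted p for Cdkn3. Whether it gave one for the cyclins, Cdc25c and Cks2 was not looked up. Cdk1, the kinase that drives entry into mitosis, had 299 CPM in the control, 321 with UPM alone, and 301, 276 and 253 from TZ 1.25 to TZ 5. It was lower at each step of dose, with a coefficient of -0.069 (SE 0.022) that missed the limit (adjusted p = 0.0560) and passed it with DESeq2 (adjusted p = 0.0485), with DESeq2 size factors (adjusted p = 0.0439) and with dose as a rank (adjusted p = 0.0227). Of the B-type cyclins, Ccnb2 was at 0.795-fold (0.714 to 0.886) and Ccnb1 at 0.927-fold (0.842 to 1.02) in TZ 5 against UPM. Ccna2, the cyclin of S phase and G2, was at 1.14-fold. Cdkn3 had 9.72 CPM in the control, 16.3 with UPM alone, and 14.3, 15.4 and 10.6 from TZ 1.25 to TZ 5, so that UPM and the lower doses were high and the control and TZ 5 low. The coefficient was not called (-0.11, SE 0.058, adjusted p = 0.303). Cdc25c, the phosphatase that activates Cdk1, and Cks2, a small Cdk-binding protein, had 33 to 61 counts in a library, under 10 CPM, too few to resolve differences of this size.

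**Figure D2:**
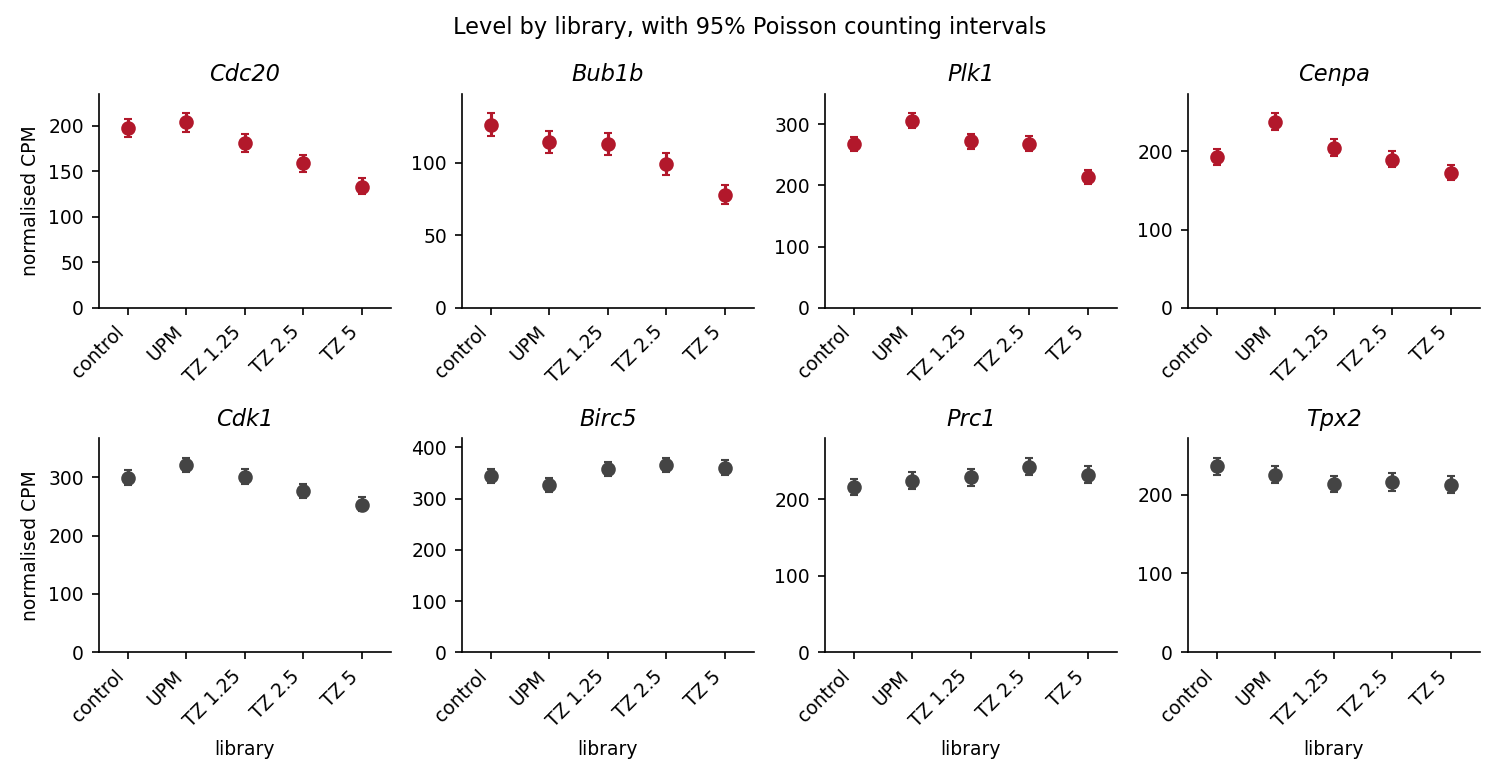
Normalised CPM (y axis, from 0) in the 5 libraries (x axis) for the 4 genes that fell with TZ dose (red) and for Cdk1, Birc5, Prc1 and Tpx2 (grey), with bars for 95% Poisson counting intervals. The red genes are lowest in TZ 5, with Cdc20 at 133 CPM there and 204 CPM in UPM, and so are Cdk1 (253 and 321 CPM) and Tpx2 (213 and 225 CPM), while Birc5 (361 and 327 CPM) and Prc1 (232 and 225 CPM) are not.

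The 5 kinesins, motors that build the spindle and act in cytokinesis, all had negative coefficients, with a median of -0.083. With dose as a number 0 passed the test in edgeR, while 3 had an unadjusted p under 0.05. DESeq2 called 0 of them too, but gave no adjusted p for Kif4. Whether it gave one for Kif11, Kif2c and Kif20a was not looked up. With dose as a rank Kif11 passed. Their summed level was 331 CPM in the control, 364 with UPM alone, and 320, 314 and 289 from TZ 1.25 to TZ 5, which makes UPM the highest and TZ 5 the lowest library. Kif4, the chromosome-bound motor of the midzone, had 53.5 CPM in the control, 62.5 with UPM alone, and 51.3, 51.4 and 45.4 from TZ 1.25 to TZ 5, a fold of 0.727 (0.628 to 0.840) in TZ 5 against UPM and a coefficient of -0.083 (SE 0.033, adjusted p = 0.147). Kif11, the motor that pushes spindle poles apart, had 79.1 CPM in UPM and 58.2 CPM in TZ 5, with a coefficient of -0.090 (SE 0.031, adjusted p = 0.0737). Kif2c was at 0.740-fold (0.624 to 0.875) in TZ 5 against UPM. Kif23, a subunit of the centralspindlin complex, had 124 CPM in the control, 131 with UPM alone, and 110, 122 and 109 from TZ 1.25 to TZ 5, with no order by dose, and Kif20a, a motor needed for cytokinesis, was at 0.915-fold in TZ 5 against UPM.

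Centromere and passenger genes were divided. Cenpa had 193 CPM in the control, 238 with UPM alone, and 205, 190 and 173 from TZ 1.25 to TZ 5. UPM was the highest library, and the control lay between TZ 1.25 and TZ 2.5. It fell by 0.088 per µg/mL (SE 0.023, adjusted p = 0.0149), and its call was lost without the UPM library (coefficient -0.065, adjusted p = 0.420). The other 5 genes of the group did not pass the test. Birc5, which encodes survivin of the passenger complex, had 344 CPM in the control, 327 with UPM alone, and 357, 366 and 361 from TZ 1.25 to TZ 5, so that the 3 TZ libraries were the highest. Cenpe, a kinetochore motor, was the single member that was higher at each step of dose, with 326, 327, 372 and 380 CPM from UPM to TZ 5 (coefficient 0.049, SE 0.022, adjusted p = 0.219). Incenp had 165 CPM in UPM and 197 to 206 CPM in the 4 other libraries, and Cenpf, a kinetochore protein, was at 1.17-fold (1.095 to 1.25) in TZ 5 against UPM. Cdca8, encoding borealin, had the smallest ratio of highest to lowest library among the 40 genes, 1.05.

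Top2a and Mki67, often read as markers of proliferation, did not pass the test. Top2a, the topoisomerase that untangles chromosomes, had 1385 CPM in the control, 1379 with UPM alone, and 1353, 1253 and 1237 from TZ 1.25 to TZ 5. It was lower at each step, with TZ 5 against UPM at 0.897-fold (0.872 to 0.923) and a coefficient of -0.033 (SE 0.021, adjusted p = 0.428). Mki67, which coats mitotic chromosomes, had 452 CPM in the control, 497 with UPM alone, and 454, 490 and 507 from TZ 1.25 to TZ 5, with no order by dose. TZ 5 was the highest library for Mki67 and the lowest for Top2a.

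Spindle and cytokinesis genes gave 0 calls with dose, where edgeR gave 0 and 1 members with an unadjusted p under 0.05. DESeq2 called 0, but gave no adjusted p for Ect2. Whether it gave one for Nusap1, Racgap1 and Anln was not looked up. Tpx2, which activates Aurora A on the spindle, had 236 CPM in the control, 225 with UPM alone, and 213, 216 and 213 from TZ 1.25 to TZ 5. Hmmr, a spindle assembly factor, had 158 CPM in the control, 162 with UPM alone, and 158, 152 and 177 from TZ 1.25 to TZ 5, where it was highest. Prc1, which bundles midzone microtubules, had 216 CPM in the control, 225 with UPM alone, and 229, 243 and 232 from TZ 1.25 to TZ 5. Nusap1, a microtubule-bundling protein, was at 1.02-fold in TZ 5 against UPM. Ect2, the exchange factor that activates RhoA at the furrow, had 12.2 CPM in the control, 11.6 with UPM alone, and 11.2, 9.24 and 15.4 from TZ 1.25 to TZ 5, from 64 to 106 counts. Its interval in TZ 5 against UPM included 1 (1.32-fold, 0.988 to 1.77). Racgap1, the partner of Kif23, was at 0.828-fold (0.759 to 0.903), and Anln at 0.955-fold (0.869 to 1.05).

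**Figure D3:**
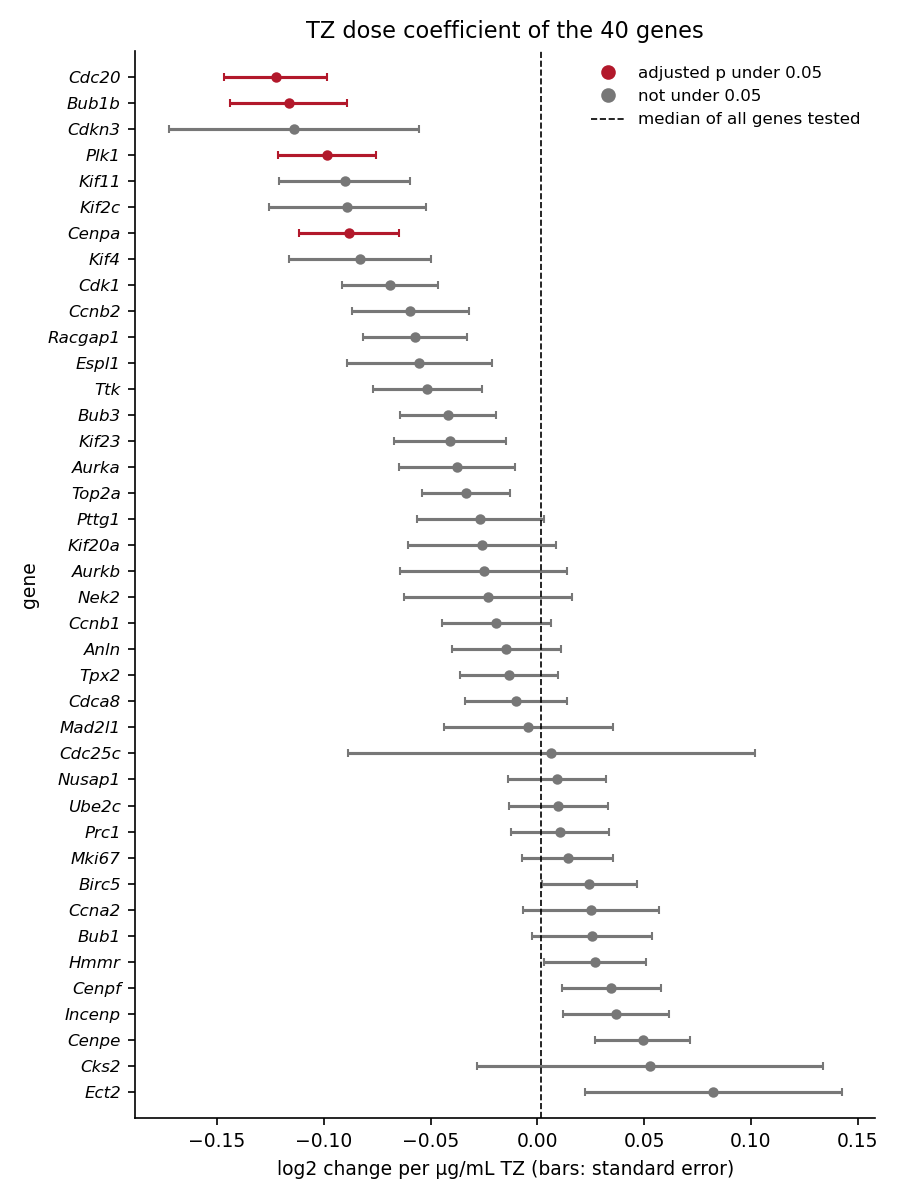
TZ dose coefficients (x axis, log2 change per µg/mL, with standard errors) of the 40 genes (y axis), with genes at an adjusted p under 0.05 in red and the median of all genes tested as a dashed line at 0.0016. The 4 red genes lie from -0.12 (Cdc20) to -0.088 (Cenpa), with Cdkn3, Kif11 and Kif2c in grey between them, and 26 of the 40 lie below 0.

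Library by library, the folds against UPM were small at the lower doses. In TZ 1.25 against UPM 0 of 38 members were called, where 1.19% of 8336 genes were called higher and 1.03% lower. In TZ 2.5 against UPM 0 were called, where 2.67% of 8337 genes were higher and 1.73% lower. In TZ 5 against UPM 2 were called lower and 0 higher, where 2.80% of 8367 genes were lower and 3.78% higher. The 2 were Cdc20 and Cdkn3, with Cdkn3 at 0.648-fold (0.479 to 0.872). At a fold of at least 1.25 the members called lower were 0, 4 and 10 of 38 from TZ 1.25 to TZ 5, against 6.18%, 9.81% and 12% of all genes, and 0, 0 and 0 were called higher, against 6.14%, 11.0% and 13.8%. The median log2 folds of the members were -0.04, -0.08 and -0.14 in the same order. Over all genes measured they were -0.0037, -0.0053 and 0.0046. The summed level of the 40 genes was 6967 CPM in TZ 1.25, 6807 CPM in TZ 2.5 and 6615 CPM in TZ 5, with 7121 CPM in UPM, and the fold of TZ 5 against UPM was 0.929 (0.917 to 0.941). By function, the summed fold of TZ 5 against UPM was 0.791 (0.757 to 0.827) for the mitotic kinases, 0.792 (0.748 to 0.839) for the kinesins, 0.849 (0.814 to 0.887) for Cdk1 and its partners and 0.863 (0.834 to 0.892) for checkpoint and anaphase genes. It was 1.06 (1.03 to 1.09) for centromere and passenger genes, 1.01 (0.968 to 1.05) for spindle genes and 0.958 (0.915 to 1.00) for cytokinesis genes. Top2a and Mki67 together were at 0.930-fold (0.908 to 0.953). Plk1 held 2337 of the 4778 kinase counts in UPM, and the other 4 kinases were each between 0.876-fold and 0.888-fold. The pairs of TZ against UPM share the UPM library. Against the control, the summed fold of TZ 5 was 0.9505 (0.939 to 0.963) and the median log2 fold of the members -0.10, with 0.0051 over all genes measured.

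The order of the libraries can also be read without a threshold. Along UPM, TZ 1.25, TZ 2.5 and TZ 5, 11 of the 40 genes were lower at each step and 1 was higher at each step, against 8.15% and 8.71% of 12381 genes. The 11 were Cdc20, Bub1b, Plk1, Cenpa, Cdk1, Bub3, Kif11, Kif2c, Racgap1, Aurka and Top2a. This count was chosen after the values were seen, and the genes are not independent of each other. The shares over all genes were not matched to the members for level.

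Other genes of the cell cycle were taken from lists on the same fit. Among 32 further kinetochore genes 1 fell and 0 rose, namely Pmf1, a subunit of the Mis12 complex (-0.092, SE 0.028, adjusted p = 0.0378, edgeR quasi-likelihood test). Among 27 further spindle genes edgeR called 0, with 2 positive and 1 negative at an unadjusted p under 0.05. Among 16 APC/C genes Anapc4, a core subunit, rose (0.12, SE 0.038, adjusted p = 0.0468) and 0 fell. It had 29.3 CPM in UPM and 39.6, 46.5 and 46.7 CPM from TZ 1.25 to TZ 5, with 48.3 CPM in the control, so that UPM was the library that stood apart.

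Condensin and cohesin, the ring complexes that compact chromosomes and hold sister copies together, gave 3 genes that rose and 1 that fell among 17. Smc4 had 542 CPM in UPM and 585, 653 and 787 CPM from TZ 1.25 to TZ 5 (0.11, SE 0.021, adjusted p = 0.000472, edgeR). Smc2, its partner in condensin, rose by 0.076 (SE 0.022, adjusted p = 0.0275), and Smc3, of the cohesin ring, by 0.11 (SE 0.025, adjusted p = 0.00311). Ncapd2, the condensin subunit, fell by 0.088 (SE 0.027, adjusted p = 0.0403).

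Regulators of the transition into mitosis gave 1 gene that rose and 1 that fell among 29. Cdc25b, a phosphatase that activates Cdk1, rose by 0.13 per µg/mL (SE 0.032, adjusted p = 0.00863, edgeR), and Troap fell by 0.10 (SE 0.030, adjusted p = 0.0324). In the list of the step before DNA synthesis (G1/S) 2 rose (Cdkn1b and Ccne2) and 3 fell (Cdkn1a, Cdk4 and Ccnd1) among 18, where Ccnd1 is outside the rule for naming genes and was named after its value was seen. The Cdk inhibitors Cdkn1b at 0.18 (SE 0.042, adjusted p = 0.00437) and Cdkn1a at -0.18 (SE 0.023, adjusted p = 2.53e-07) were on opposite sides. Among 39 DNA replication genes 1 rose and 1 fell, with a median coefficient of 0.019. Mcm7, of the replicative helicase, fell by 0.13 (SE 0.023, adjusted p = 0.000163), and Fen1, the flap nuclease, rose by 0.15 (SE 0.031, adjusted p = 0.00118). The median coefficient was lower in the G1/S list (-0.029, with 14 of 18 below 0) than in the mitotic list (-0.024, with 26 of 40). It was -0.016 for the APC/C genes and from 0.0023 to 0.019 in the remaining lists. The summed fold of TZ 5 against UPM was 0.862 (0.846 to 0.879) for the G1/S list and 0.929 for the mitotic list. The difference between the mitotic list and these lists was not tested.

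**Figure D4:**
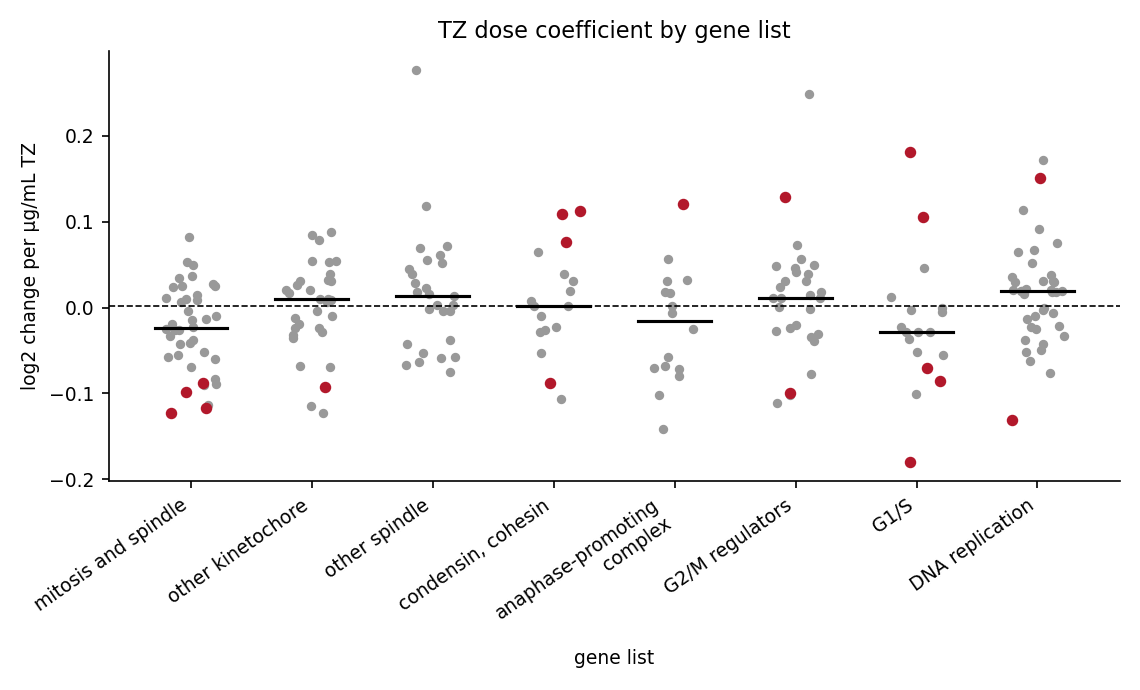
TZ dose coefficients (y axis, log2 change per µg/mL) of each gene tested in 8 lists (x axis), with genes at an adjusted p under 0.05 in red, the others in grey, list medians as bars and the median of all genes as a dashed line. The red genes of the mitosis and spindle list are all below 0 and its median is -0.024, while condensin and cohesin genes include 3 red genes above 0. The G1/S median is lower, at -0.029.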

How the data were processed

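The authors deposited whole-number counts for each gene symbol in a separate file per library, made from QuantSeq 3′ libraries read from a single end (75 bp), per the labels. STAR, edgeR and build GRCm39 appear in the submitters' processing notes, without versions. No source used here gives the read counter, annotation, strand setting or filters. The labels name no molecular identifiers, and intervals cover counting error only.

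TMM factors were computed over all genes of the 5 libraries. Folds between 2 libraries have 95% exact conditional binomial (Clopper-Pearson) intervals. The model with UPM (0 or 1) and TZ dose as a number was fitted to 12381 genes after filterByExpr (edgeR 4.0.16, limma 3.58.1, R 4.3.3). Each standard error is the size of the log2 estimate over the square root of its F. The UPM term rests on 1 control, which is assumed to vary as the exposed libraries do. DESeq2 1.42.0 was an alternative. Each group had 1 library.

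The members and lists were chosen with earlier results of these data known. Values in every library are printed for members called in a pair or in the fit, and in each function group for the member with the highest mean CPM and the one with the largest fold in TZ 5 against UPM. Of the other lists, genes among the 3 highest and 3 lowest dose coefficients are named. Promoter sequences and last-exon overlaps (5 of 40 members, all with a gene on the opposite strand) come from GRCm38 annotation, not the build of the counts.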

Additional observations from a re-analysis of the deposited data

How the results depend on the processing

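No paired analysis was possible because each group had 1 library. The count of members that fell with TZ dose ran from 0 to 4 when each UPM-exposed library was left out in turn. It was 0 without TZ 5 and 2 without UPM. With no filter 4 fell, 5 with DESeq2 or with its size factors, and 6 with dose as a rank (Cdk1 and Kif11 added). The share of all genes that fell was 1.26% without TZ 5, 0.77% without UPM, 2.23% without TZ 1.25 and 1.97% without TZ 2.5. It was 1.62% with no filter, 0.751% with DESeq2, 2.86% with its size factors and 3.43% with dose as a rank. Without TZ 5 the adjusted p (edgeR) was 0.0578 for Cdc20, 0.530 for Bub1b, 0.441 for Plk1 and 0.0827 for Cenpa. Single coefficients were followed only for the 15 members picked for values in every library. Of these, the coefficients changed sign for Hmmr (-0.036 to 0.049) and Ect2 (-0.13 to 0.15) over the left-out libraries, negative without TZ 5. UPM against control called 2 members higher with library totals, 0 at a mean CPM of 30 or a fold of 2, and 3 higher and 1 lower at a fold of 1.25. TZ 5 against UPM called 1 lower at a mean CPM of 30, 0 at a fold of 2 and 10 at 1.25. TZ 2.5 against UPM called 4 lower at a fold of 1.25. TZ 5 against control called 0 lower at a fold of 2 and 4 at 1.25. At changed limits, shares over all genes were computed only for TZ against UPM at a fold of 1.25, given above. The other counts of pair calls cannot be set against all genes. Library totals gave TZ 2.5 against UPM a median of -0.051 and a summed fold of 0.975, and TZ 5 against control -0.076 and 0.965; at a mean CPM of 30 the last median was -0.13. The other 120 recomputed values stayed within 1.5 times for counts, the counting interval for pair folds and the median standard error for coefficients, a wide limit for the UPM median (0.023, and 0.024 to 0.056 over left-out libraries). For single genes, 12 results lost and 3 gained a call; the causes were not tested. Members with about 100 counts or fewer in a library, such as Cdkn3, Ect2, Cks2 and Cdc25c, are limited by depth.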
